A study of Rattus norvegicus with 18 samples.

Results

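The genes of disease-associated phagocytic microglia were followed in the cerebral cortex of rats after subarachnoid hemorrhage (SAH), bleeding into the space around the brain. The 10 genes are Trem2, Tyrobp, Apoe, Lpl, Spp1, Lgals3, Gpnmb, Cd68, Itgax and Cst7, chosen by symbol from the 30735 genes of the deposited count table. RNA was sequenced from 18 adult Sprague Dawley rats, 6 in each of 3 groups, with 1 library per rat. In the SAH groups an artery at the base of the brain was perforated with a filament passed through the internal carotid artery, and the cortex was taken 1 day (SAH 1d) or 7 days (SAH 7d) later. Sham rats had the same operation without the perforation. No group carried a genetic change. The time at which sham cortex was taken, and the sex of the rats, were not stated. The study's methods describe the whole cortex of the operated side, whereas the deposited protocol speaks of both sides and of mice. The gene identifiers in the files are those of rat.

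Microglia are the resident macrophages of the brain. Around plaques, myelin debris and dying cells they take on a state first described in mouse models of neurodegeneration, in which the surface receptor TREM2 binds lipids and lipoproteins and signals through its adaptor TYROBP, also called DAP12. In that state genes for lipid transport, lysosomes and phagocytosis are raised, and genes of resting microglia are lowered. Infiltrating macrophages express many of the same genes, and Apoe is made in large amounts by astrocytes. Counts from whole cortex do not separate these sources, and more cells of a type cannot be told apart from more RNA per cell.

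The libraries held between 27270026 and 38271014 counts each. Levels are given as CPM, counts per 1e+06 counts after TMM scaling of library sizes, within a gene, and as FPKM, which also divides by transcript length, between genes. Libraries SAH 7d-5 and SAH 1d-3 stood apart from their groups, and the calls of the 10 genes and of the lists that change without them are given. SAH 7d-5 was the highest of the 18 libraries for 9 of the 10 genes, and SAH 1d-3 was the highest for Itgax. The 10 genes took 3.94% of all counts in SAH 7d-5, against 0.223% to 0.428% in the other 5 SAH 7d libraries and a median of 0.210% in sham. Their share in SAH 1d had a median of 0.223%. Most of these counts came from Apoe, and without it the median share was 0.00684% in sham, 0.0352% in SAH 1d and 0.0139% in SAH 7d. Neuronal markers summed to between 2229 and 9091 CPM over the 18 libraries, lowest in SAH 7d-5, and markers of choroid plexus and striatum to between 90.1 and 1336 CPM.

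In sham cortex the 10 genes spanned several orders of magnitude in FPKM. Apoe, the main lipid carrier protein of the brain, had a median of 1684 FPKM, far above Lpl at 10.6 FPKM in all 6 sham libraries. Lpl, Tyrobp at 7.21 FPKM and Trem2 at 6.94 FPKM had overlapping ranges. Gpnmb followed at 4.01 FPKM and was above the next gene in every sham library. Lgals3 at 1.68, Cd68 at 1.32 and Spp1 at 1.07 FPKM overlapped one another. Itgax and Cst7 were close to the limit of detection, with medians of 0.0253 and 0.0236 FPKM.

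The order of the levels changed after SAH. In SAH 1d the median FPKM fell in the order Apoe (1584), Spp1 (80.1), Gpnmb (50.1), Lgals3 (31.3), Tyrobp (25.6), Trem2 (8.57), Lpl (8.21), Cd68 (3.24), Itgax (1.62) and Cst7 (0.205). Spp1 thus had rank 2 at 1 day and rank 8 in sham, with ranges in SAH 1d that overlapped those of Gpnmb. Tyrobp was above Trem2 in all 6 SAH 1d libraries with no overlap. Trem2 and Lpl had overlapping ranges, with Trem2 above Lpl in 2 of 6 libraries. In SAH 7d the order was Apoe (2223), Tyrobp (24.8), Trem2 (21.1), Gpnmb (14.9), Lpl (10.4), Cd68 (8.01), Lgals3 (6.42), Spp1 (5.14), Itgax (0.223) and Cst7 (0.120). Below Apoe, the ranges of all neighbours in the SAH 7d order overlapped.

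Promoter windows were read for the 10 genes as a description of their sequence. The RefSeq table holds at least 1 window for 7 of the 10 genes, running from 250 bases before to 50 bases after a start site on the GRCr8 assembly. Tyrobp, Lpl and Lgals3 were not matched. Capitals mark the letters TGANTCA, a loose form of the AP-1 site of FOS and JUN proteins, which usually has C or G in the middle. They also mark the M-box TCACATGA, bound by MITF and related factors of lysosome and pigment genes. The windows lie at chr4:79340878-79341177 on the plus strand for Gpnmb, and on the minus strand at chr10:54882392-54882691 for Cd68, chr9:20151730-20152029 for Trem2 and chr14:5619755-5620054 for Spp1. They are printed 5′ to 3′ in the direction of transcription.
Gpnmb: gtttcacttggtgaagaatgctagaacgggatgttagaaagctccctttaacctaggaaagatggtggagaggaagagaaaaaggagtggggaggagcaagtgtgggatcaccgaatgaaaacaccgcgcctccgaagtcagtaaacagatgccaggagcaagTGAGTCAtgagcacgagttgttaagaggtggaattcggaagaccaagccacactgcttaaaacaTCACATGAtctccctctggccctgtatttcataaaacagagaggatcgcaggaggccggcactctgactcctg
Cd68: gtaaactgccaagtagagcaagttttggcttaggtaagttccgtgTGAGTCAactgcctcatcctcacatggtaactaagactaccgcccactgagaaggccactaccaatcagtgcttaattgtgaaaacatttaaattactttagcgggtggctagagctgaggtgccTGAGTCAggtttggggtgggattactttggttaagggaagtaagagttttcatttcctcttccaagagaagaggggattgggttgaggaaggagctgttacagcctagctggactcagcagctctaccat
Trem2: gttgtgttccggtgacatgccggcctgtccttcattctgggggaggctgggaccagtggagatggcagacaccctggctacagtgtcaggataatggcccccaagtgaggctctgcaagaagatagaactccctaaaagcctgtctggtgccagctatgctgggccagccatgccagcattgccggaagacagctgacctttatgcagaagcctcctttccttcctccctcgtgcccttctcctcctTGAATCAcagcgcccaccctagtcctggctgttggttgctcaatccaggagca
Spp1: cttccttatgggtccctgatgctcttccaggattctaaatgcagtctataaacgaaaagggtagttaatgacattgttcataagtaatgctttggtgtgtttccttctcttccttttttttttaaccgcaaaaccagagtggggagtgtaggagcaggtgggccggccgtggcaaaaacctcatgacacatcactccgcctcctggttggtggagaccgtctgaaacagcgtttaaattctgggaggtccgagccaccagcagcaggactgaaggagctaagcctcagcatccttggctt

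The loose AP-1 letters, searched on both strands, were in the windows of 5 of the 7 genes (Trem2, Gpnmb, Cst7, Itgax and Cd68) and in 7.33% of the 33469 windows of the table. Gpnmb, Itgax and Cd68 held TGAGTCA, the usual form. Trem2 held TGAATCA and Cst7 TGATTCA, which match the loose form only. Gpnmb had its match starting 87 bases before the start site, Itgax 56 bases before and Trem2 3 bases before. Cd68 had a pair, 205 and 80 bases before. The M-box was found in Gpnmb only, 23 bases before the start site, and in 1.16% of all windows. The shorter letters CATGTG, which overlap the M-box in Gpnmb, were in 3 of the 7 genes and in 14% of windows. CACGTG (6.42% of windows), its longer form TCACGTGA (0.777%) and GAGGAAGT (2.42%), a long form of the PU.1 site, were in none of the 7. AGGAAGT (8.41%), a long form of the ETS site, was in Cst7 only. The shorter cores GAGGAA and GGAA within them were not searched, so their absence is not shown. The Spp1 window held none of the letters searched. All of these are matches of letters and not measured binding sites. Their part in the profiles across the groups, given next, was not tested.

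SAH 1d was compared with sham to ask which of the genes had moved 1 day after the bleed. Spp1, Itgax, Lgals3, Gpnmb, Cd68 and Tyrobp rose, 6 of the 10 genes, and none fell at an adjusted p under 0.05 in edgeR's quasi-likelihood test. Over all 18444 genes tested, 14.9% were called higher and 10.5% lower. All 6 were at least 2-fold higher, as were 5.57% of all genes tested, and all 6 had no overlap in CPM between the groups, as did 7.89% in the upward direction. Trem2, Apoe and Lpl did not pass the test. Cst7 was below the filter on low counts and was not tested. Itgax reached the filter's level of 0.326 CPM in all 12 SAH libraries and in no sham library, so its presence among the tested genes rests on the groups where it was high.

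The receptor and its adaptor parted at 1 day. Trem2 ranged from 8.01 to 11.1 CPM in sham with a median of 8.52, and from 6.80 to 11.2 CPM in SAH 1d with a median of 9.88. The groups overlapped almost completely, and the log2 fold change was 0.041 ± 0.15 (SE, adjusted p = 0.865). Tyrobp, which carries the signal of TREM2 and of several other myeloid receptors, ranged from 4.26 to 6.80 CPM in sham with a median of 4.65. In SAH 1d it ranged from 9.98 to 26.6 CPM with a median of 15.4. Every SAH 1d library was above the highest sham library, and the log2 fold change was 1.74 ± 0.21 (SE, adjusted p = 0.000167), or 3.34-fold. A fit that shared 1 estimate of the spread across all 18 libraries, in which 8.18% of genes were called higher, gave an adjusted p of 0.0825 for Tyrobp.

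Apoe and Lpl, the members that act on lipoproteins, did not pass the test at 1 day. Apoe ranged from 1842 to 2857 CPM in sham with a median of 2099, and from 1371 to 2371 CPM in SAH 1d with a median of 1821. The log2 difference was -0.26 ± 0.14 (SE, adjusted p = 0.185). Lpl encodes lipoprotein lipase, which frees fatty acids from lipoproteins. It ranged from 24.7 to 48.2 CPM in sham with a median of 41.6, and from 20.2 to 45.1 CPM in SAH 1d with a median of 29.8. The log2 difference was -0.33 ± 0.22 (SE, adjusted p = 0.298), and for both genes the groups overlapped.

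RNA of Spp1 and of Lgals3 rose at 1 day. Spp1 encodes osteopontin, a ligand of integrins and CD44. It ranged from 1.29 to 3.68 CPM in sham with a median of 1.74, and from 20.3 to 274.8 CPM in SAH 1d with a median of 114. SAH 1d-5 was the lowest of the 6 SAH 1d libraries and was still above every sham library. The log2 fold change was 5.90 ± 0.56 (SE, adjusted p = 3.38e-05), or 59.8-fold. Lgals3 encodes galectin-3, a lectin released by activated phagocytes. It ranged from 1.04 to 2.92 CPM in sham with a median of 1.72, and from 24.0 to 92.0 CPM in SAH 1d with a median of 29.1. The highest value was that of SAH 1d-3, with the other 5 libraries at or below 39.3 CPM. The log2 fold change was 4.43 ± 0.40 (SE, adjusted p = 2.31e-05).

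Gpnmb, a transmembrane glycoprotein of phagocytes with lipid-laden lysosomes, had the smallest adjusted p of the 10 genes. It ranged from 6.35 to 11.7 CPM in sham with a median of 9.78, and from 99.6 to 219.6 CPM in SAH 1d with a median of 115. The lowest SAH 1d library was far above the highest sham library, and the log2 fold change was 3.82 ± 0.23 (SE, adjusted p = 1.37e-06), or 14.1-fold. Cd68 encodes a lysosomal membrane protein of macrophages. It ranged from 1.06 to 2.05 CPM in sham with a median of 1.75, and from 3.04 to 13.9 CPM in SAH 1d with a median of 4.04. SAH 1d-3 stood above the rest, the groups did not overlap, and the log2 fold change was 1.86 ± 0.37 (SE, adjusted p = 0.00376). With 1 spread shared by all 18 libraries, the adjusted p of Cd68 was 0.233.

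Itgax encodes the integrin subunit CD11c, found on dendritic cells and on activated microglia. It had 0 to 8 counts in the sham libraries, or at most 0.276 CPM with a median of 0.128. In SAH 1d it ranged from 3.47 to 38.2 CPM with a median of 7.51, and the highest value was that of SAH 1d-3, with the other 5 libraries at or below 8.73 CPM. The log2 fold change was 6.44 ± 0.73 (SE, adjusted p = 0.000102). Cst7 encodes cystatin F, an inhibitor of lysosomal proteases. Its counts were 0 to 3 in sham and 0 to 12 in 5 SAH 1d libraries, against 120 in SAH 1d-3. Its low counts thus gave a clear signal in 1 library only at this time.

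**Figure D1:**
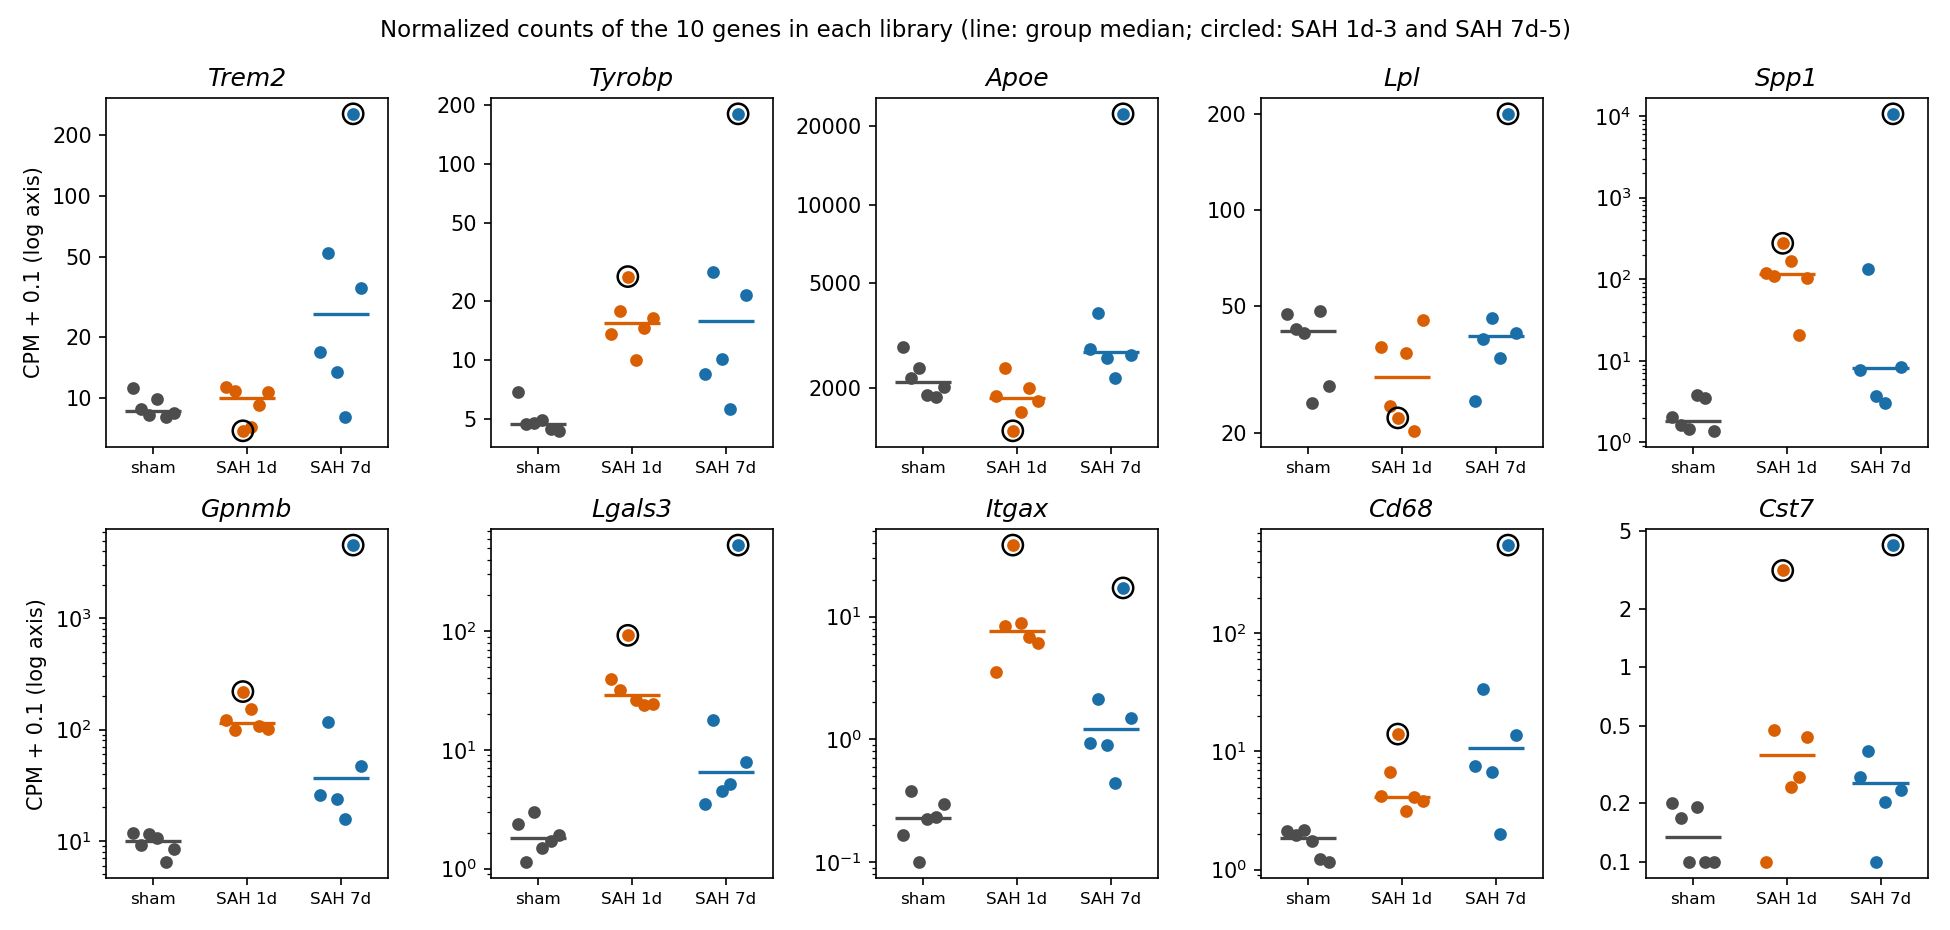
CPM of each of the 10 genes in each library, plotted as CPM plus 0.1 on a log axis; points are libraries, lines are medians of 6 libraries, and circles mark SAH 7d-5 and SAH 1d-3. Spp1, Gpnmb, Lgals3, Itgax, Cd68 and Tyrobp had every SAH 1d library above every sham library, whereas SAH 7d-5 was the highest of its group in all 10 panels.

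Without SAH 1d-3, the same 6 genes were called higher and background calls were 15.4%. The log2 fold changes were then 5.58 for Itgax, 5.54 for Spp1, 3.98 for Lgals3, 3.62 for Gpnmb, 1.55 for Tyrobp and 1.39 for Cd68, with adjusted p-values of 0.00100 or lower in edgeR. SAH 1d-3 had 23.3 times the sham median of summed neutrophil markers, 3.41 times that of monocyte and border macrophage markers and 0.756 times that of homeostatic microglia markers. The part of these cell types in the result was not tested, beyond the values without this library.

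SAH 7d was compared with sham to ask whether the genes were still raised a week after the bleed. None of the 10 genes was called in either direction in edgeR, and neither was any of the 18444 genes tested (0%). At an unadjusted p under 0.05, 8 of the 9 tested genes were higher, against 11.7% of all genes tested. DESeq2 called Trem2, Tyrobp and Itgax higher, where 2.2% of all genes were, and gave no adjusted p for the other 6 tested genes. Limma voom called none of the 10, where 0.0108% of all genes were called higher, and the fit of all 18 libraries also called none (0.0434%). All 9 log2 fold changes were above 0, but their standard errors were wide, since SAH 7d-5 stood far above the other 5 libraries. Gpnmb, Itgax and Lgals3 had no overlap in CPM with sham, as did 0.797% of all genes tested in the upward direction.

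Trem2 ranged from 8.01 to 254 CPM in SAH 7d with a median of 25.8, and 5 of the 6 libraries were above the highest sham library. Its log2 fold change over sham was 2.82 ± 0.75 (SE, adjusted p = 0.214). Tyrobp ranged from 5.54 to 180.9 CPM with a median of 15.7, again with 5 libraries above sham, and its log2 fold change was 3.11 ± 0.80 (SE, adjusted p = 0.214). In both genes SAH 7d-4 lay within the sham range. Apoe ranged from 2178 to 22168 CPM with a median of 2738, with 2 libraries above the highest sham library, and its log2 fold change was 1.47 ± 0.56 (SE, adjusted p = 0.273). Lpl ranged from 25.1 to 200.5 CPM with a median of 40.1. Only SAH 7d-5 exceeded the sham range of Lpl, and the log2 fold change was 0.74 ± 0.47 (SE, adjusted p = 0.424).

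Spp1 had the widest spread of the 10 genes at 7 days. It ranged from 2.94 to 10589 CPM with a median of 7.96, and the second highest library, SAH 7d-2, was at 134.7 CPM. The other 4 libraries were at or below 8.33 CPM, and 4 of the 6 were above the highest sham library. The log2 fold change was 9.67 ± 2.42 (SE, adjusted p = 0.214). Lgals3 ranged from 3.41 to 529.9 CPM with a median of 6.45, and its log2 fold change was 5.69 ± 1.44 (SE, adjusted p = 0.214). All 6 SAH 7d libraries were above the highest sham value of Lgals3.

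Gpnmb ranged from 15.6 to 4546 CPM with a median of 36.3, every library being above sham, and its log2 fold change was 6.39 ± 1.58 (SE, adjusted p = 0.214). Cd68 ranged from 1.92 to 558 CPM with a median of 10.5 and was above the highest sham library in 5 of 6. Its log2 fold change was 6.0 ± 1.40 (SE, adjusted p = 0.214). Itgax ranged from 0.342 to 17.0 CPM with a median of 1.12, all above sham, with a log2 fold change of 4.77 ± 1.06 (SE, adjusted p = 0.214). Cst7 had 137 counts in SAH 7d-5 and 0 to 9 in the other 5 libraries.

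The order of the libraries at 7 days was shared by most of the genes. SAH 7d-5 was the highest of its group for all 10, and SAH 7d-2 was the second for 9. Over the sham median, SAH 7d-5 was 6075-fold higher for Spp1, 465-fold for Gpnmb, 318-fold for Cd68 and 308-fold for Lgals3. The same library was 38.9-fold higher for Tyrobp, 29.8-fold for Trem2, 10.6-fold for Apoe and 4.82-fold for Lpl. SAH 7d-2 was 77.3-fold higher for Spp1, 19.4-fold for Cd68, 11.8-fold for Gpnmb and 6.14-fold for Trem2, and was at 0.943 of the sham median for Lpl.

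**Figure D2:**
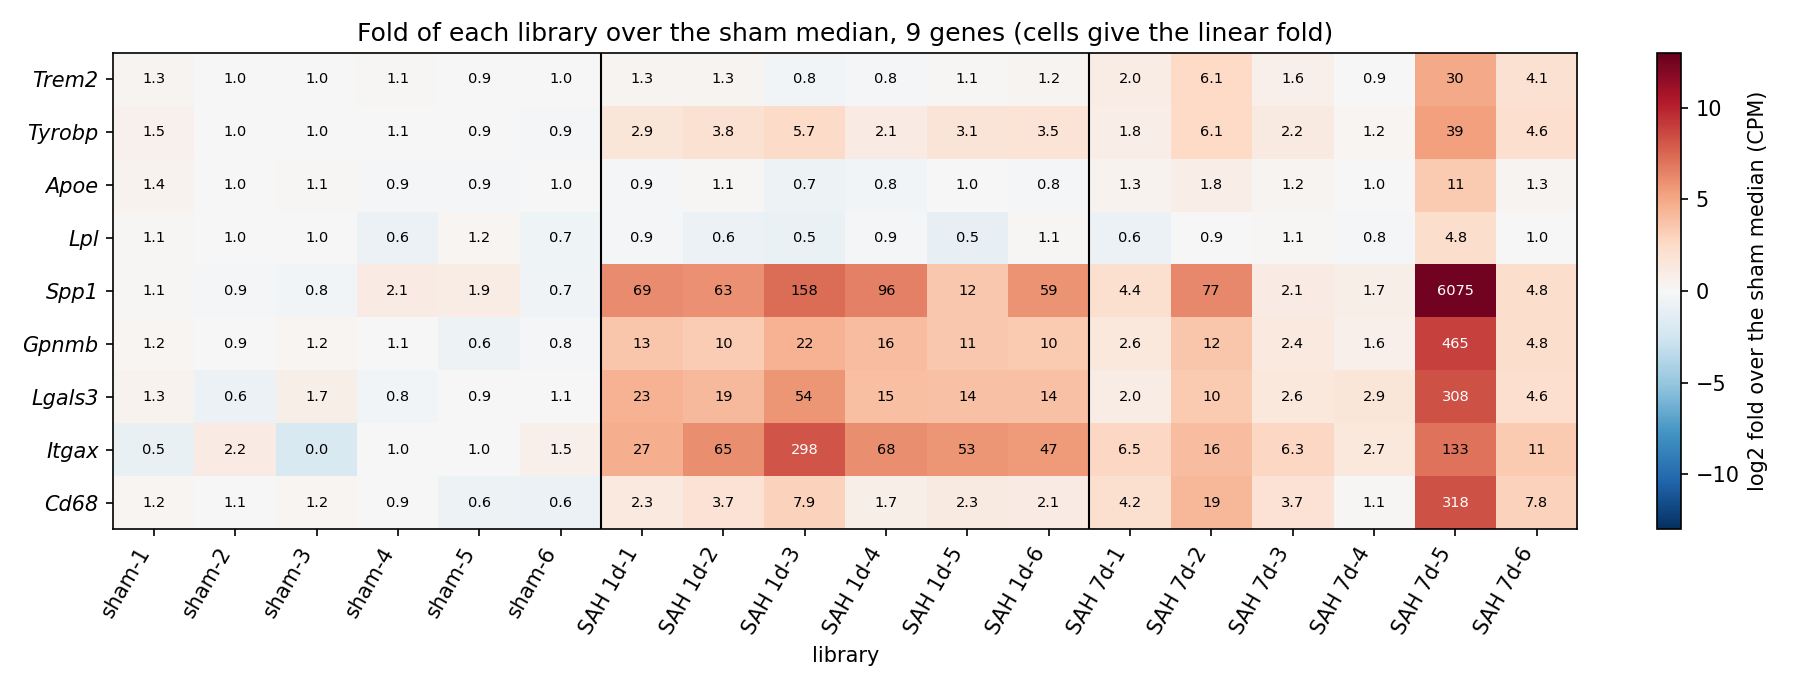
Fold of each library's CPM over the sham median for 9 of the 10 genes, with libraries in columns; colour gives the log2 fold and the number in each cell the linear fold. SAH 7d-5 reached 6075-fold for Spp1 and 4.82-fold for Lpl, while in the SAH 1d columns Trem2 lay between 0.798 and 1.32, Apoe between 0.653 and 1.13 and Lpl between 0.484 and 1.08.

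Markers of several cell types moved with SAH 7d-5. Against the sham median, its summed CPM was 65.1-fold higher for neutrophil markers, 33.2-fold for T cell markers, 21.8-fold for pan-microglia and macrophage markers and 17.1-fold for markers of meningeal fibroblasts and mural cells. The neutrophil gene Ltf had no counts in any group. Over sham at 7 days, the 4 tested neutrophil genes had a median log2 fold change of 4.63. Among them S100a9 was at -0.50 ± 0.86 (SE, adjusted p = 0.759 in edgeR). The 4 tested T cell genes had a median of 1.29, with Lck at -0.10 ± 0.20 (adjusted p = 0.781). The T cell list also holds Cd4, which rat macrophages and microglia express. In SAH 7d-5 homeostatic microglia markers were 8.07-fold higher, proliferation genes 7.65-fold, and neuronal markers were at 0.277 of the sham median. Markers of red cells were at 0.0533 and those of choroid plexus and striatum at 0.141 of it. The part of tissue makeup, lesion or dissection in the level of the 10 genes in this library was not tested.

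Without SAH 7d-5, none of the 10 genes was called over sham in edgeR, and again no gene of the 18444 was. The log2 fold changes were smaller and more precise, at 3.85 ± 0.97 (SE) for Spp1, 2.99 ± 0.58 for Itgax, 2.98 ± 0.56 for Cd68, 2.27 ± 0.44 for Gpnmb and 2.07 ± 0.41 for Lgals3. Those of Tyrobp and Trem2 were 1.59 ± 0.36 and 1.49 ± 0.38. Apoe was at 0.38 ± 0.15, and Lpl moved to -0.048 ± 0.19. The adjusted p-values of these 9 genes lay between 0.106 and 0.942. DESeq2 without this library called 6 genes higher, namely Trem2, Tyrobp, Gpnmb, Itgax, Cd68 and Lgals3, where 2.33% of all genes were called higher, and gave no adjusted p for Spp1.

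SAH 7d was then set against SAH 1d, the comparison within the bleed itself. None of the 10 genes was called by edgeR with all 12 libraries, where 0.282% of all genes tested were called higher and 1.08% lower. At an unadjusted p under 0.05, Trem2, Cd68, Apoe and Lpl were higher, 4 of the 9 tested genes, against 6.66% of all genes tested. DESeq2 called Trem2 higher (1.99% of all genes) and gave no adjusted p for 7 of the genes. Limma voom with weights for library quality called Apoe higher (6.37% of all genes) and Spp1, Gpnmb, Itgax and Lgals3 lower (8.37%). The fit of all 18 libraries called Trem2 and Cd68 higher (1.28%). Trem2 differed by 2.78 ± 0.76 on the log2 scale (SE, adjusted p = 0.0992), Cd68 by 4.15 ± 1.30 (adjusted p = 0.146), Apoe by 1.74 ± 0.57 (adjusted p = 0.167) and Lpl by 1.08 ± 0.48 (adjusted p = 0.324). In CPM, 5 of 6 SAH 7d libraries were above the highest SAH 1d library for Trem2 and for Apoe. For Cd68 and Lpl, 2 were.

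The fits of Spp1, Gpnmb and Lgals3 rested on SAH 7d-5. With all libraries the log2 differences were 3.78 ± 1.88 for Spp1, 2.59 ± 1.33 for Gpnmb and 1.28 ± 1.19 for Lgals3 (SE, adjusted p from 0.375 to 0.665), although the median CPM of each was lower at 7 days than at 1 day. SAH 7d-5 was the only library of its group above the highest SAH 1d library for each of these genes. Tyrobp, at 1.38 ± 0.76 (adjusted p = 0.434), and Itgax, at -1.65 ± 0.92 (adjusted p = 0.438), also had overlapping groups.

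Without SAH 7d-5, edgeR called Trem2 (1.42 ± 0.40, SE, adjusted p = 0.0463) and Apoe (0.62 ± 0.16, adjusted p = 0.0328) higher at 7 days. It called Itgax (-3.46 ± 0.67, adjusted p = 0.0116) and Lgals3 (-2.38 ± 0.50, adjusted p = 0.0154) lower. In that fit 3.18% of all genes were called higher and 5.19% lower. Without SAH 1d-3 as well, 3 genes were called, where 6.13% of all genes tested were called higher and 7.49% lower. Apoe was higher, at 0.55 ± 0.15 (adjusted p = 0.0277). Itgax and Lgals3 were lower, at -2.61 ± 0.39 (adjusted p = 0.00188) and -1.93 ± 0.39 (adjusted p = 0.00763). Trem2 was then at 1.35 ± 0.42 with an adjusted p of 0.0515, and Gpnmb at -1.37 ± 0.45 with an adjusted p of 0.0648. Cd68 was at 1.56 ± 0.57 (adjusted p = 0.0941) and Spp1 at -1.72 ± 0.97 (adjusted p = 0.274). Tyrobp was at 0.026 ± 0.37 (adjusted p = 0.975).

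**Figure D3:**
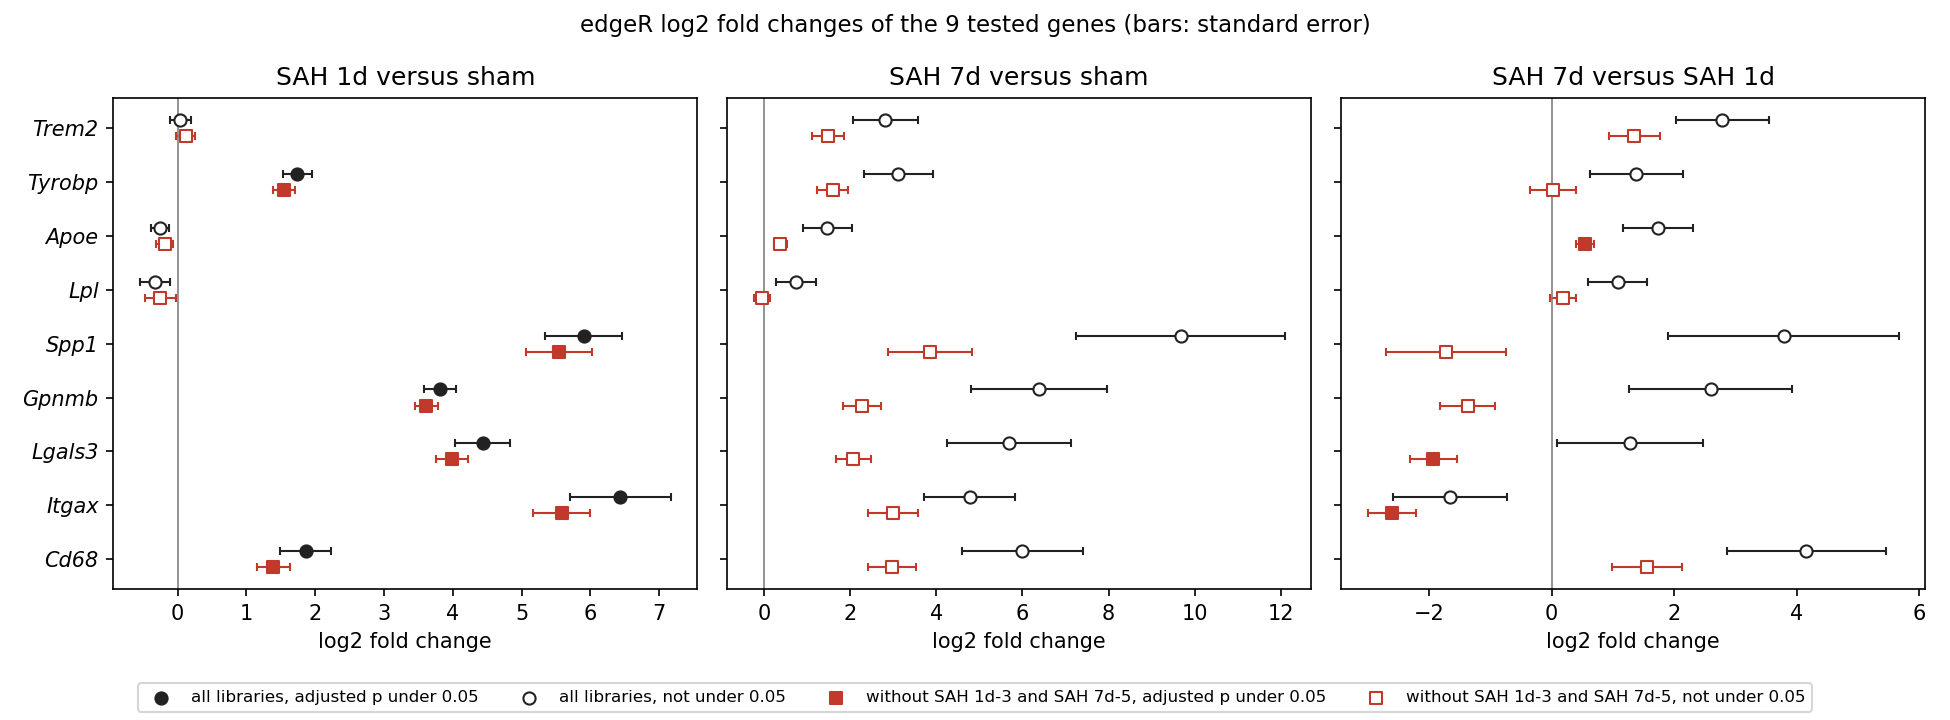
Log2 fold changes with standard errors from edgeR for the 9 tested genes in the 3 comparisons, with all libraries (circles) and without the 2 libraries SAH 7d-5 and SAH 1d-3 (squares); filled symbols had an adjusted p under 0.05. In SAH 1d versus sham the same 6 genes are filled in both fits, and in SAH 7d versus SAH 1d Spp1, Gpnmb and Lgals3 change sign between the fits.

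The partners of TREM2 were examined as a list of 15 genes for ligand, shedding and signalling, of which 14 were tested. At 1 day 8 were higher than in sham and none was lower, where 14.9% of all genes tested were higher and 10.5% lower. The median log2 fold change was 0.61, against 0.01 over all genes tested. Vav1, a guanine nucleotide exchange factor downstream of SYK, rose by 1.76 ± 0.32 (SE, adjusted p = 0.00216). Inpp5d, the phosphatase SHIP1 that opposes PI3-kinase signalling, was at -0.18 ± 0.16 (adjusted p = 0.429). Between 1 and 7 days none of the 14 was called with all libraries, where 0.282% of all genes tested were higher and 1.08% lower. Without SAH 7d-5 and SAH 1d-3, 1 was lower, where 7.49% of all genes tested were, and the median moved from 0.77 to 0.0069. The kinase gene Syk was at 1.65 ± 0.73 (adjusted p = 0.3203) and Clu, a lipoprotein bound by TREM2, at -0.38 ± 0.14 (adjusted p = 0.221).

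Other genes of the disease-associated state were read at the same times. Of 24 tested, 16 were higher at 1 day and 1 lower, or 17 and 1 without SAH 1d-3, where 14.9% of all genes were higher. The median log2 fold change was 0.82, and 7 genes did not pass the test. Lilrb4, an inhibitory receptor, had the largest difference at 5.49 ± 1.12 (SE, adjusted p = 0.00431). Nceh1, a cholesteryl ester hydrolase, was the gene that fell, by 0.38 on the log2 scale (SE 0.09, adjusted p = 0.0121). Between 1 and 7 days none of the 24 was called with all libraries, where 0.282% of all genes tested were higher and 1.08% lower. Without SAH 7d-5 and SAH 1d-3, 5 were lower and none higher, where 7.49% of all genes tested were lower and 6.13% higher. The median moved from 0.56 to -0.013. Mmp12, a macrophage elastase, was at 4.05 ± 1.99 (adjusted p = 0.370), and Ch25h, a cholesterol hydroxylase, at -0.96 ± 0.48 (adjusted p = 0.373). Cd52 had no counts in any SAH 7d library.

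Lipid handling, lysosomal control and the partners of osteopontin and galectin-3 came next. At 1 day 14.9% of all genes tested were higher and 10.5% lower. Of 13 tested genes for lipid and lysosomal lipid handling, 7 were higher at 1 day, or 6 without SAH 1d-3, and none lower, with a median of 0.29. Msr1, a scavenger receptor for modified lipoproteins, rose by 4.34 ± 0.61 (SE, adjusted p = 0.000493). Of 9 transcription factors of the MITF/TFE family and of myeloid cells, 4 were higher, or 5 without SAH 1d-3, and none lower, with a median of 0.75. Tfec, a member of the MITF family, rose by 2.84 ± 0.56 (adjusted p = 0.00371). Of 12 receptors and partners of osteopontin and galectin-3, 6 were higher and none lower, or 6 and 1 without SAH 1d-3, with a median of 0.68. Cd44, a receptor of osteopontin, rose by 3.57 ± 0.52 (adjusted p = 0.000631), and Itgav, an integrin subunit, was at -0.22 ± 0.13 (adjusted p = 0.222). None of the 3 lists had a called gene in SAH 7d versus SAH 1d with all libraries. There 0.282% of all genes tested were higher and 1.08% lower. Without SAH 7d-5 and SAH 1d-3, the lipid list had 1 higher and 3 lower, the transcription factors 1 lower, and the partners 1 higher and 2 lower. In that fit 6.13% of all genes tested were higher and 7.49% lower.

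Of 9 homeostatic microglia genes tested, 3 fell at 1 day and none rose, where 10.5% of all genes tested fell and 14.9% rose. Their median log2 fold change was -0.68. Their summed level had a median of 271.7 CPM in sham and 299.97 CPM in SAH 1d, so the sum was not lower. P2ry12, the purine receptor of resting microglia, fell by 1.19 on the log2 scale (SE 0.35, adjusted p = 0.0251), and Csf1r, the receptor for the survival factor CSF1, was at 0.40 ± 0.16 (adjusted p = 0.0756). Without SAH 1d-3, 4 were lower and 2 higher, where 13% of all genes tested were lower and 15.4% higher. Siglech and Trem1, also on this list, had no counts in sham and were not tested. Trem1 is not a marker of the homeostatic state, and both genes are part of the summed levels. Between 1 and 7 days, Selplg (2.0 ± 0.30, adjusted p = 0.00627) and Tmem119 (1.56 ± 0.26, adjusted p = 0.0123), both named after their values were seen, were higher. With all libraries, 0.282% of all genes tested were higher and 1.08% lower in that comparison. P2ry12 was at 2.19 ± 0.54 (adjusted p = 0.0687). Without both libraries that stood apart, 4 of the 9 were higher, where 6.13% of all genes tested were.

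Markers of other cells were read beside these genes. At 1 day 14.9% of all genes tested were higher and 10.5% lower. Of 11 markers of microglia and macrophages in any state, 8 were higher at 1 day, or 9 without SAH 1d-3, and none lower, with a median of 1.61. The largest difference was that of Cd14, a coreceptor for bacterial lipopolysaccharide, at 4.59 ± 0.78 (SE, adjusted p = 0.00159). Their summed level ranged from 141.7 to 278.6 CPM in sham and from 406 to 774 CPM in SAH 1d. Monocyte and border macrophage markers had 5 of 10 higher, or 3 without SAH 1d-3, a median of 0.79 and sums of 54.6 to 90.9 CPM in sham and 70.9 to 226 CPM in SAH 1d. Of 10 neutrophil markers, only 4 passed the filter on low counts and were tested. Of these, 3 were higher, or 2 without SAH 1d-3, with a median of 3.24, or 1.67 without it. Mcemp1 had no counts in sham, so its place among the 4 rests on the groups where it was high. The sums of the 10 markers ranged from 1.92 to 6.39 CPM in sham and from 7.19 to 81.2 CPM in SAH 1d. The part of entering leukocytes in the rise of the 6 genes was not tested.

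Among the remaining lists, neuronal markers had 7 of 10 genes lower at 1 day, or 8 without SAH 1d-3, and a median of -0.54, with Neurod6, a transcription factor of cortical excitatory neurons, down by 1.13 on the log2 scale (SE 0.18, adjusted p = 0.00120). Astrocyte markers had 2 of 9 higher and 2 lower, with a median of -0.16, and Gfap, the filament protein of reactive astrocytes, rose by 3.0 ± 0.17 (adjusted p = 1.37e-06). Of the other lists, 2 of 7 proliferation genes (3 without SAH 1d-3), 1 of 5 endothelial, 1 of 9 fibroblast and mural, and 1 of 4 T cell markers were higher and none was lower. Their medians were 0.70, 0.21, 0.10 and -0.020 in that order. Over all genes tested, 14.9% were higher and 10.5% lower, so these few calls are not read as results about the lists. None of 9 oligodendrocyte and 5 red cell markers was called, with medians of -0.011 and 0.69. Choroid plexus and striatum genes, read as checks of the dissection, had differences of opposite sign at 1 day. The 3 tested choroid plexus genes had log2 differences of 3.35 to 4.35, of which Kl passed, named after its value was seen (adjusted p = 0.0298). The 5 striatal genes had log2 differences of -1.48 to -0.71, of which Adora2a passed (adjusted p = 0.0416). Without SAH 1d-3, 3 genes of this list were higher and none was lower. The part of the dissection in the rise of the 6 genes was not tested. Against sham at 7 days none of the genes in any list was called by edgeR. Between 1 and 7 days the T cell list had 1 call, Cd4 (2.27 ± 0.49, adjusted p = 0.0436), a gene that rat macrophages and microglia also express. With all libraries, 0.282% of all genes tested were higher and 1.08% lower in that comparison. Without SAH 7d-5 and SAH 1d-3, that comparison had 3 astrocyte, 3 neuronal, 2 fibroblast and mural, 1 oligodendrocyte, 1 T cell and 1 microglia and macrophage marker higher. It had 2 neutrophil, 2 endothelial, 2 microglia and macrophage, 2 choroid plexus and striatum, and 1 astrocyte marker lower. In that fit 6.13% of all genes tested were higher and 7.49% lower.

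**Figure D4:**
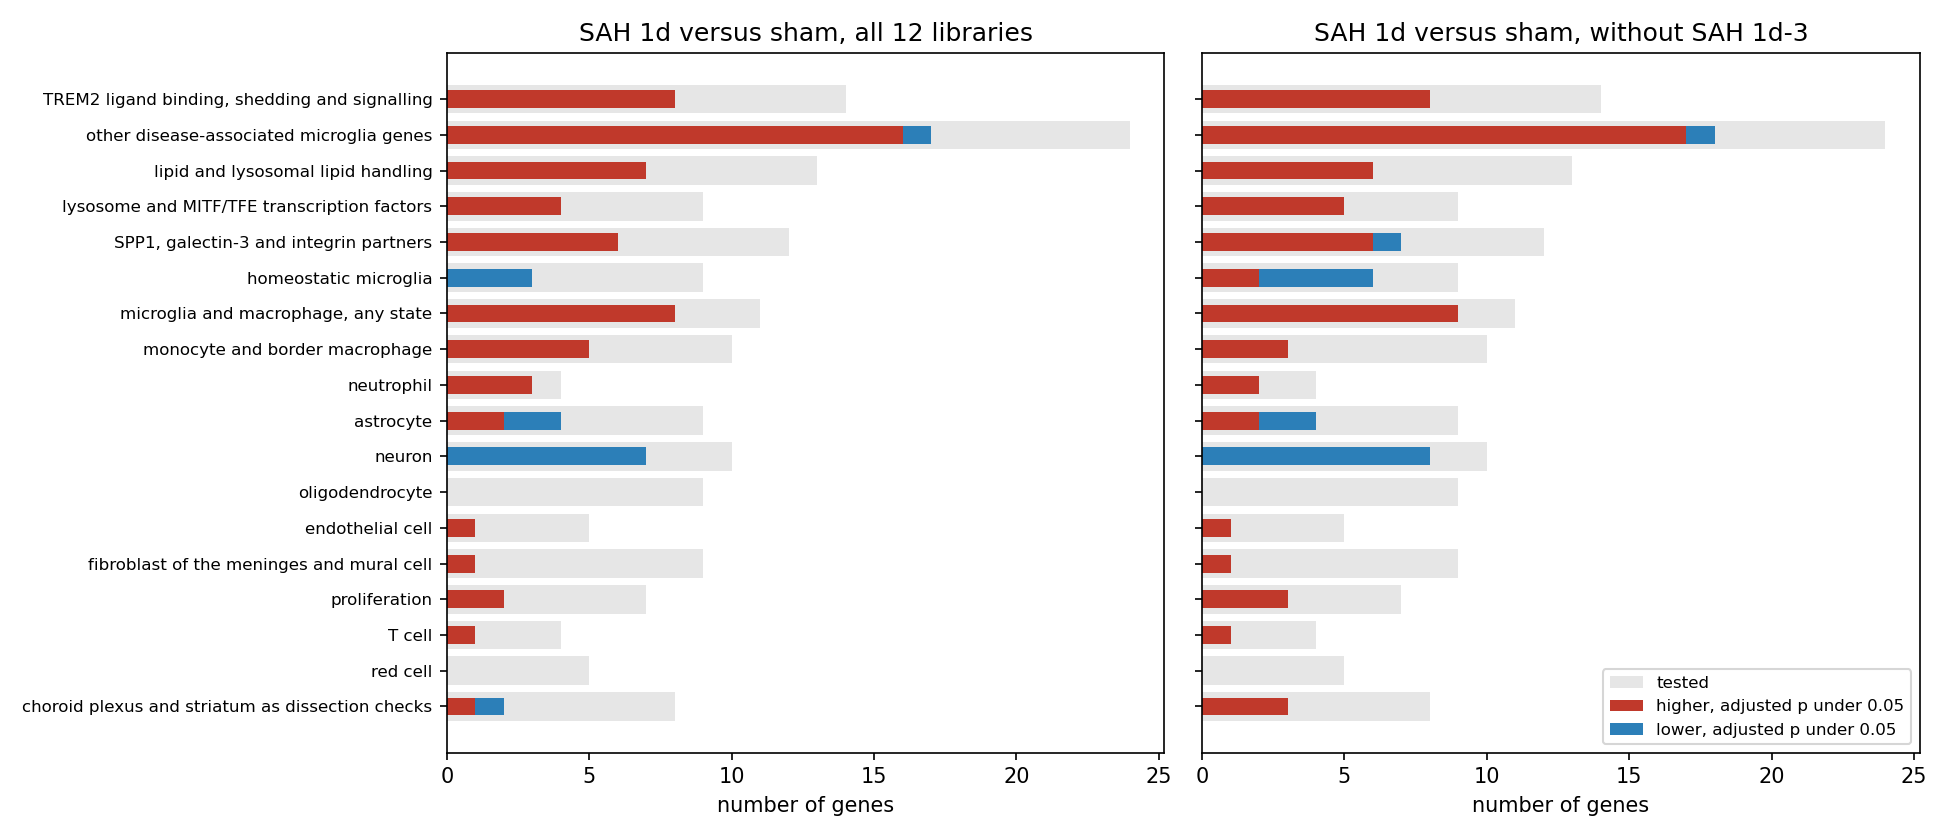
Number of genes in each list that were tested (grey) and called higher (red) or lower (blue) in SAH 1d versus sham, with all 12 libraries on the left and without SAH 1d-3 on the right. The list of other disease-associated genes had 16 of 24 higher, and the homeostatic list had 3 of 9 lower with all libraries. Over all genes tested, 14.9% were higher and 10.5% lower.

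The profiles of Trem2 and Gpnmb across the 18 libraries were most like those of different genes. By Spearman's rho of CPM over 14025 genes with a symbol, Trem2 was closest to Tmem176b (0.915), Mlc1 (0.913) and S100a13 (0.903). Gpnmb was closest to Piezo1 (0.963), Nfkb2 (0.961) and Tpm4 (0.961). Over the 16 libraries left without SAH 7d-5 and SAH 1d-3, the nearest were Cd48, Unc93b1 and S100a13 for Trem2, at 0.903, 0.894 and 0.888. For Gpnmb they were Usp53, Piezo1 and Ampd3, at 0.950, 0.947 and 0.944. These correlations share the same libraries and the same group differences, and are given as a description.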

How the data were processed

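The deposited table holds whole-number counts per gene and library, which the authors made from the reads without normalization, and FPKM values (fragments per kilobase of transcript per 1e+06 mapped reads) that the authors computed from the same libraries. The submitters' processing notes list fastp, HISAT2 and DESeq2 1.16.1, with no roles given, and the mouse build mm9, whereas the study's text names a rat genome. The counting program, its use of strand and other versions were not given in the sources used here. Groups and library numbers came from the deposited descriptions, which equal the column names. SAH libraries carry different codes as titles, and no sequencing batch is given.

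Of 30735 genes, 18444 passed filterByExpr and were tested with edgeR 4.0.16 (TMM, quasi-likelihood F test, two-sided, 12 libraries per comparison) in R 4.3.3, with Benjamini-Hochberg adjustment over all of them. Of these, 3100 are loci outside the annotation. Alternatives used DESeq2 1.42.0 and limma 3.58.1. The scripts were tested on simulated data. The 18 lists hold 196 genes, of which 172 were tested, and 10 were not analysed here. From each list the genes with the largest and the smallest log2 fold change in SAH 1d versus sham and in SAH 7d versus SAH 1d could be named, and the genes most like Trem2 and Gpnmb by Spearman's rho. 1 gene that this rule names is not reported here. The 10 genes and all lists were chosen with earlier results of these data known. The standard errors of edgeR were derived from the log2 fold change and its F statistic. They hold the spread between rats together with counting error. The list counts and the likeness without SAH 7d-5 and SAH 1d-3 were added after the data were seen.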

Additional observations from a re-analysis of the deposited data

Results flagged for a closer look

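In groups of 6, the gap of the highest or lowest library to its nearest neighbour was divided by the range of the group and compared with Dixon's 95% critical value for 6 libraries. Of 30 pairs of gene and group, 15 exceeded it, where chance gives about 1 in 20 groups if values are normally distributed. The CPM values were used without a log, so the rate expected by chance is not known here. The 30 pairs share libraries and are not independent.

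SAH 7d-5 accounted for 10 of the 15, 1 per gene, and was the highest of its group each time. Its values were 254 CPM for Trem2, 180.9 for Tyrobp, 22168 for Apoe, 200.5 for Lpl and 10589 for Spp1. They were 529.9 CPM for Lgals3, 4546 for Gpnmb, 558 for Cd68, 17.0 for Itgax and 4.14 for Cst7. The gap was widest relative to the range for Spp1, at 0.988, and narrowest for Trem2, at 0.820.

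SAH 1d-3 accounted for 4, with 38.2 CPM for Itgax, 92.0 for Lgals3, 13.9 for Cd68 and 3.04 for Cst7. The last was Tyrobp in sham-1, at 6.80 CPM against 4.88 CPM in the next sham library.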

How the results depend on the processing

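The 27 log2 fold changes (9 genes, 3 comparisons) were refitted in 671 combinations of gene and setting. Direction and side of the threshold held in 618, 22 passed the threshold only in the alternative, 2 no longer passed it (Tyrobp and Cd68 at 1 day with all 18 libraries in 1 fit) and 29 changed sign. Results for which DESeq2 gave no adjusted p were taken as not passing in these numbers. In SAH 1d versus sham the number of called genes lay between 4 and 7. The 7 came with no filter, where Cst7 had a log2 fold change of 3.85 (SE 1.14, adjusted p = 0.0336), and requiring at least 10 counts per library removed Itgax. Scaling by total counts alone raised the median of all genes by 0.12 in that comparison.

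In SAH 7d versus sham, DESeq2 called 3 genes, or 6 without both SAH 7d-5 and SAH 1d-3. In SAH 7d versus SAH 1d, DESeq2 called 1, limma voom 5, the fit of all 18 libraries 2, edgeR without both libraries 3 and DESeq2 without both 4. Leaving out 1 library at a time gave between 0 and 4, the 4 without SAH 7d replicate 5. DESeq2 gave no adjusted p for 6 of the genes in SAH 7d versus sham and for 7 in SAH 7d versus SAH 1d, and these were not counted as lost.

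Signs changed as follows. Trem2 at 1 day versus sham ranged from -0.022 to 0.12 when 1 library was left out, with -0.0038 and -0.0017 among these values. Lpl at 7 days versus sham was -0.048 without SAH 7d-5 and without both libraries, and -0.051 in DESeq2 without both. In SAH 7d versus SAH 1d, Tyrobp was -0.22 in voom and -0.17 without SAH 7d-5. Spp1 was -3.30 in voom, -1.55 on log2(FPKM + 1), -1.77 on log2(FPKM + 0.1), -2.08 without SAH 7d-5, and -1.72 without both libraries in edgeR and in DESeq2. Gpnmb was -1.73, -0.71, -0.77, -1.57, -1.37 and -1.36 under these settings. Lgals3 was -2.21, -1.30, -1.44, -2.38, -1.93 and -1.92. Leaving out 1 library at a time, the highest values were 0.91 for Lpl at 7 days versus sham and, in SAH 7d versus SAH 1d, 1.61 for Tyrobp, 4.14 for Spp1, 2.85 for Gpnmb and 1.73 for Lgals3, and the lowest were those without SAH 7d-5. The cause was not tested, except that SAH 7d-5 was the only SAH 7d library above the SAH 1d range for these 3 genes.

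With the replicate number as a block, 6 genes were called in SAH 1d versus sham and 0 in the other comparisons, and calls over all genes in SAH 7d versus SAH 1d dropped from 252 to 29. In this fit Spp1 was -3.23, Gpnmb -1.28 and Lgals3 -1.84. Deviations of libraries with the same number correlated between -0.318 and 0.292 over the 3 comparisons, at most 2 of 6 pairs exceeded 0.1, and at most 1 library of 6 correlated best with its own number, so the numbers were not taken as a pairing. Standard errors at 7 days of up to 2.42 on the log2 scale limit what could be detected.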
